A study of Mus musculus with 10 samples.

Results

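The 10 genes described here belong to the integrated stress response that the transcription factor ATF4 directs: Atf4, Atf3, Ddit3, Trib3, Asns, Chac1, Fgf21, Psat1, Phgdh and Mthfd2. The set was drawn up with earlier results of these data known. Its genes were matched to the count table by symbol alone and took up 11 of the 55421 identifiers, because Ddit3 has a second identifier. That identifier had 0 counts in every library. All 10 genes had enough reads to be tested, as did 22449 identifiers in all. RNA-seq of poly(A) RNA was done on whole livers of 10 male mice that lacked or kept H3.3, a histone H3 variant encoded by H3f3a and H3f3b. The KO group was 4 mice with H3f3a fl/fl and H3f3b fl/fl alleles that were given AAV8 Tbg-Cre, a virus whose Tbg promoter limits Cre to hepatocytes, so that the other cells of the liver kept both genes. The WT Cre controls were 3 wild-type mice that were given the same virus, and the MCS controls were 3 floxed mice that were given AAV8 Tbg-MCS, which carries no Cre. Virus was given to mice aged 6 months, and RNA was taken 3 weeks later. The genotype entry of the labels names HIRA for the floxed animals, while their titles name H3f3a and H3f3b, and the titles were followed here.

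In the integrated stress response, kinases that sense amino acid shortage, unfolded protein in the endoplasmic reticulum (ER), viral RNA or heme shortage phosphorylate the translation factor eIF2. General translation then falls while translation of the Atf4 mRNA rises, so ATF4 protein can increase with no change in its mRNA, which is what RNA-seq measures. ATF4 pairs with other bZIP proteins and binds C/EBP-ATF response elements near genes of amino acid uptake and synthesis, of redox balance and, under lasting stress, of cell death. In the liver the same pathway is one route to the secretion of FGF21, a hormone of fasting and nutrient stress.

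The promoters were read for that element because it is the sequence that ATF4 binds with its partners. The window ran from 250 bases upstream to 50 bases downstream of each RefSeq start site (GRCm38.p6, the assembly also called mm10), both strands were searched for TGATGNAA, and the element was present in 1304 of 32851 promoters (3.97%). It was present in 5 of the 10 genes, Asns, Atf3, Chac1, Fgf21 and Trib3. The share counts promoters, while this count is of genes, which matched 11 promoters. The 10 genes were also chosen as ATF4 response genes, so these values are no test of enrichment. The search covered this window and this exact word alone, so it does not show that the other genes lack the element. The cAMP response element TGACGTCA, which does not overlap it, was present in 588 promoters (1.79%) and in 0 of the 10 genes. The 5 matches are printed below in the direction that reads TGATGNAA, with the match in capitals and the bases on each side in lower case, so that the words can be compared.
Asns: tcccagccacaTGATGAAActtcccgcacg
Atf3: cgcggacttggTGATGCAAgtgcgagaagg
Chac1: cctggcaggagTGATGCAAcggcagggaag
Fgf21: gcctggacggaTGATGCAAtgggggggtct
Trib3: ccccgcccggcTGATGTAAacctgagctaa

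Atf3, Chac1 and Fgf21 carried the same word, TGATGCAA, on the strand opposite to the gene. Counted from the start site, with upstream bases negative, it ran from -110 to -103 in Atf3 (window chr1:191183425-191183454, plus strand), from -193 to -186 in Chac1 (chr2:119351038-119351067, minus strand) and from -139 to -132 in Fgf21 (chr7:45615611-45615640, plus strand). The Asns match ran from -23 to -16 on the strand of the gene (chr6:7693214-7693243, minus strand) and lay inside the first exon of GENCODE release M21. The Trib3 match lay 15 to 22 bases after the RefSeq start on the opposite strand (chr2:152344028-152344057, plus strand), outside the GENCODE exons. A match is a string of letters and was not tested for binding. The upstream stretches of 3 of these genes are shown on the strand of the gene, because Atf3 rose in KO and Chac1 and Fgf21 fell while sharing the word, which reads TTGCATCA here and is in capitals.
Atf3 (chr1:191183341-191183583, minus strand, 243 bases): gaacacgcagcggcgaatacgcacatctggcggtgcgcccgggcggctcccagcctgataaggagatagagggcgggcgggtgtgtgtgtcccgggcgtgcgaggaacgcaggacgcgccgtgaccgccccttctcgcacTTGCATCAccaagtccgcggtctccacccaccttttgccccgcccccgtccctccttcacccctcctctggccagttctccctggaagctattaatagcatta
Chac1 (chr2:119350992-119351228, plus strand, 237 bases): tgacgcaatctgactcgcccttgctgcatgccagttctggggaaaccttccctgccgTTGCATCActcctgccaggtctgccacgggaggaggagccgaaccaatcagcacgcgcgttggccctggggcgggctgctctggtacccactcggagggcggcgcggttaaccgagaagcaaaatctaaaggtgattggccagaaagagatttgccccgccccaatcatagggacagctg
Fgf21 (chr7:45615491-45615740, minus strand, 250 bases): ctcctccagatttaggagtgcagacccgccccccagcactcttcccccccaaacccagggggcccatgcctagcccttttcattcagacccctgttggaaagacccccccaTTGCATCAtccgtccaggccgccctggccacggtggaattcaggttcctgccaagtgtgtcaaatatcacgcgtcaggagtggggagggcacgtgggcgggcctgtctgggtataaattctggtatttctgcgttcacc

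The libraries held 20862860 to 26096141 counts in the controls, 21485241 to 23619487 in KO 2 to 4 and 14998426 in KO 1, where 1 count was worth 0.0652 CPM, the library-scaled count used for levels here. The targeted genes were reduced in every KO liver, H3f3a to between 25.7% and 30.6% and H3f3b to between 24.9% and 35.4% of the control mean, KO 1 included. A principal component analysis used only the genes that varied most over these libraries. On its first component (74.2% of the variance of those genes) KO 1 stood apart, at 22.1 beside 64.8 to 66.5 in KO 2 to 4 and -40.9 to -33.3 in the controls. Fold changes, list counts and the order of levels in KO are also given without KO 1. Of the defining genes of hepatocytes, 11 of 15 were lower in KO and 0 were higher (6 lower against the WT Cre and 11 against the MCS controls; 16.6% of all genes were lower against the 6 controls and 19.7% higher), with a summed level of 83760 to 97760 CPM in KO and 110500 to 157400 CPM in the controls, and each was detected, with Alb among the called ones. All 12 of 12 Kupffer cell and macrophage genes were higher (summed level 590 to 1259 CPM in KO, 254 to 473 CPM in the controls), as were 9 of 12 lymphoid genes (23.1 CPM in KO 1, 106 to 134 CPM in KO 2 to 4, 12.6 to 16.8 CPM in the controls), 9 of 10 stellate cell and fibroblast genes (505 to 811 CPM and 221 to 282 CPM) and 14 of 18 cell cycle genes (99.3 to 134 CPM and 68.2 to 80.9 CPM). Of the neutrophil genes, 5 of 8 had enough reads to be tested and 4 were higher (6.19 to 28.4 CPM and 3.42 to 13.1 CPM), but 3 against the WT Cre and 1 against the MCS controls. Endothelial genes were higher in 2 of 10 and cholangiocyte genes in 2 of the 9 tested (1 against the WT Cre and 4 against the MCS controls). Without KO 1, 9 hepatocyte genes were lower, and 12 Kupffer cell, 9 lymphoid, 9 stellate cell, 14 cell cycle, 4 neutrophil, 7 endothelial and 1 cholangiocyte genes were higher. The shares of all genes called without KO 1 are not given here, so these counts cannot be read against a share. In whole liver, fewer cells of a type and less RNA per cell cannot be told apart. How far these shifts enter the values of the 10 genes was not tested.

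The 10 genes moved in both directions in KO. The genes that rose were Atf3, a stress-induced transcription factor, and 4 enzymes of amino acid and one-carbon synthesis, Asns, Psat1, Phgdh and Mthfd2. The genes that fell were Chac1, which degrades glutathione, and the hormone gene Fgf21. Atf4 itself, Ddit3 and Trib3 did not pass the test against the 6 controls. With edgeR's quasi-likelihood test and Benjamini-Hochberg adjustment over all genes, 5 of the 10 were higher and 2 were lower in KO at an adjusted p under 0.05, against 19.7% higher and 16.6% lower among all genes tested. With an absolute log2 fold change over 1 as a further condition, 4 were higher and 2 were lower, against 12.9% and 5.79% of all genes. The median log2 fold change of the 10 genes was 0.51 and that of all genes tested was -0.00299. In 2 of the 10 genes (Atf3 and Mthfd2) every KO liver was above every control, against 12.5% of all genes, and in 1 (Chac1) every KO liver was below every control, against 12%. Leaving out KO 1 left 5 genes higher and 2 lower, and the share of all genes in that fit is not given here.

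**Figure D1:**
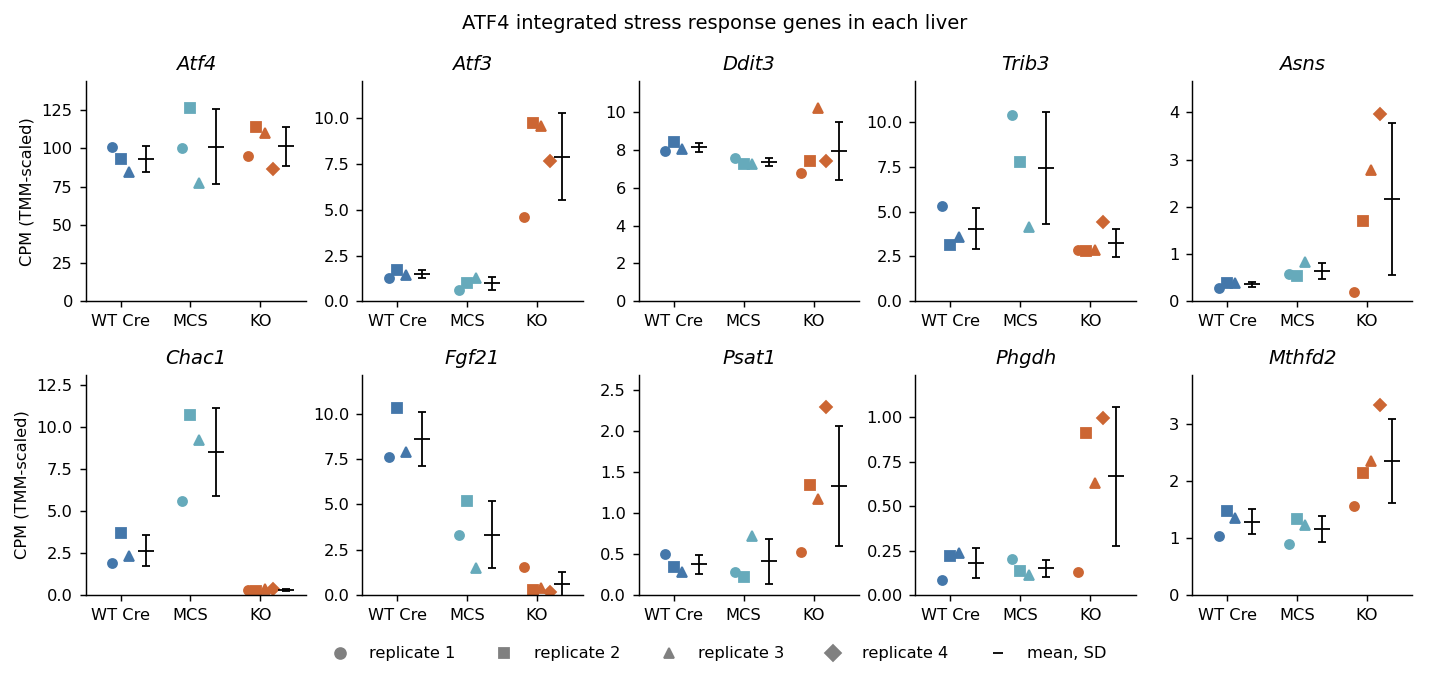
Level of the 10 genes in each liver, as CPM scaled by TMM on the vertical axis (linear, from 0, a scale of its own for each gene), with the 3 WT Cre controls, 3 MCS controls and 4 KO livers on the horizontal axis. Symbols mark the replicate number and the black bar the mean with its SD. Atf3 in KO lies between 4.63 and 9.73, above all controls, Chac1 in KO lies between 0.237 and 0.383, below all controls, and the circle of KO 1 is the lowest KO symbol for 6 genes.

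Atf4 (chr15:80255184-80257541, plus strand), the regulator after which the response is named, had the highest level per length of the 10 genes. Its level in KO 1 to 4 was 95.1, 114, 110 and 86.8 CPM. In the WT Cre controls it was 101, 93.0 and 84.4 CPM, and in the MCS controls it was 100.1, 126 and 77.1 CPM. All 3 groups overlapped, and the highest and the lowest liver were both MCS controls. The mean was 101.5 ± 12.8 CPM (SD, n = 4) in KO and 97.0 ± 17.0 CPM (SD, n = 6) in the controls. The log2 fold change was 0.07 (SE 0.13, 95% confidence interval -0.23 to 0.36, adjusted p = 0.744), so a change of a size within that interval could not be told from none at this spread.

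Atf3 (chr1:191170296-191218039, minus strand) encodes a bZIP factor that is scarce in resting tissue and rises quickly after many kinds of stress. It was at 4.63, 9.73, 9.57 and 7.65 CPM in KO 1 to 4. The WT Cre controls were at 1.29, 1.74 and 1.43 CPM and the MCS controls at 0.611, 1.03 and 1.29 CPM. Every KO liver was above every control, KO 1 was the lowest of the 4, and the WT Cre controls were all above the MCS controls, the nearest pair by little (1.292 and 1.285 CPM). The mean was 6.42 times as high in KO, with a log2 fold change of 2.68 (SE 0.26, adjusted p = 1.23e-05) and of 2.86 without KO 1. The rise was called against each kind of control, with a log2 fold change of 2.41 against the WT Cre and of 3.04 against the MCS controls.

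Ddit3 (chr10:127290774-127296288, plus strand) encodes CHOP, a bZIP factor that acts in the death arm of ER stress and is a usual readout of the response. It was at 6.78, 7.39, 10.2 and 7.42 CPM in KO 1 to 4, at 7.92, 8.42 and 8.06 CPM in the WT Cre controls and at 7.57, 7.23 and 7.27 CPM in the MCS controls. KO 3 was the highest liver and KO 1 the lowest, and the KO range enclosed both control groups. The log2 fold change was 0.04 (SE 0.13, 95% confidence interval -0.24 to 0.32, adjusted p = 0.846), and its sign turned to -0.09 without KO 3. The downstream end of Ddit3 overlaps an exon of Mars, the methionyl-tRNA synthetase gene on the other strand, and also an exon of Gm4189. Whether the counting used the strand is not given in the sources used here, so reads from these genes may have been shared; Mars was at 59.7 ± 4.81 CPM (SD, n = 4) in KO and 75.9 ± 2.72 CPM (SD, n = 6) in the controls.

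Trib3 (chr2:152337422-152344032, minus strand) encodes a pseudokinase that ATF4 and CHOP induce and that dampens ATF4 in turn. It was at 2.87, 2.81, 2.87 and 4.40 CPM in KO 1 to 4, at 5.34, 3.17 and 3.61 CPM in the WT Cre controls and at 10.4, 7.77 and 4.14 CPM in the MCS controls. KO 1 to 3 were below all 6 controls, and KO 4 was above WT Cre 2 and 3 and MCS 3. The log2 fold change against the 6 controls was -0.82 (SE 0.33, adjusted p = 0.0711). It was -1.20 against the MCS controls (adjusted p = 0.0088) and -0.31 against the WT Cre controls (adjusted p = 0.478), and the difference between these controls was -0.89 (adjusted p = 0.30 in the same test). Against all 6 controls the fall passed the threshold with DESeq2 (adjusted p = 0.0482), without WT Cre 2 (adjusted p = 0.0342) and with both kinds of control weighted equally (adjusted p = 0.0364), and against the MCS controls it was lost without MCS 1 (adjusted p = 0.0598).

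Chac1 (chr2:119351229-119354381, plus strand) encodes a gamma-glutamyl cyclotransferase that breaks down glutathione and is induced by ATF4. It fell the most of the 10 genes, to 0.326, 0.237, 0.337 and 0.383 CPM in KO 1 to 4, which rests on 5 to 10 reads per library. The WT Cre controls were at 1.92, 3.69 and 2.34 CPM and the MCS controls at 5.62, 10.8 and 9.22 CPM. The 3 groups did not overlap, with KO lowest, the WT Cre controls between and the MCS controls highest. KO was at 5.74% of the control mean, with a log2 fold change of -4.10 (SE 0.61, adjusted p = 0.000499, and -4.10 without KO 1). In the fit of 3 groups it was -3.02 against the WT Cre controls and -4.71 against the MCS controls, both called. Chac1 was also the 1 member called between the kinds of control, where 0.441% of all genes were higher and 0.486% lower in the WT Cre than in the MCS controls. It was lower in the WT Cre controls by a log2 fold change of -1.69 (SE 0.29, adjusted p = 0.0157), and this call was lost without WT Cre 1, WT Cre 3, MCS 2 or MCS 3, where the adjusted p was 0.0663 to 0.109. All 3 WT Cre animals carried Cre and wild-type alleles and all 3 MCS animals floxed alleles without Cre, so virus cargo and genotype cannot be told apart in that difference.

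Fgf21 (chr7:45613886-45615490, minus strand), the hormone gene, was at 1.56, 0.277, 0.379 and 0.153 CPM in KO 1 to 4. The WT Cre controls were at 7.63, 10.3 and 7.90 CPM and the MCS controls at 3.3, 5.18 and 1.51 CPM. KO 1 was the highest KO liver and lay just above MCS 3, and all other KO livers were below every control. All WT Cre controls were above all MCS controls, the reverse of their order in Chac1, but the difference of 1.36 on the log2 scale did not pass the adjusted test (adjusted p = 0.43). KO was at 9.93% of the control mean, with a log2 fold change of -3.49 (SE 0.72, adjusted p = 0.0041) and of -4.46 without KO 1. The fall was called against the WT Cre controls (-4.03, adjusted p = 0.00138) and the MCS controls (-2.67, adjusted p = 0.0102).

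Asns (chr6:7675169-7693254, minus strand) encodes asparagine synthetase, a target of ATF4 in cells short of amino acids. It was at 0.196, 1.70, 2.78 and 3.98 CPM in KO 1 to 4, at 0.292, 0.390 and 0.397 CPM in the WT Cre controls and at 0.570, 0.536 and 0.838 CPM in the MCS controls. KO 2 to 4 were above every control, while KO 1, with 3 reads, was below every control. KO against the 6 controls gave a log2 fold change of 2.14 (SE 0.54, adjusted p = 0.00891) and rose to 2.50 without KO 1 (adjusted p = 3.8e-05). Against the MCS controls it was 1.78 with an adjusted p of 0.0597, and without KO 1 it was 2.14 with an adjusted p of 0.000281. Against the WT Cre controls it was 2.61 (adjusted p = 0.018), and the adjusted p was 0.0711, 0.0617 and 0.0614 without WT Cre 1, 2 and 3.

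Phgdh (chr3:98313170-98339990, minus strand) and Psat1 (chr19:15904678-15947337, minus strand) encode the first and second enzymes of serine synthesis from glucose, a route that adult liver uses little when protein is plentiful. Phgdh was at 0.130, 0.909, 0.632 and 0.994 CPM in KO 1 to 4, at 0.0834, 0.217 and 0.238 CPM in the WT Cre controls and at 0.204, 0.134 and 0.112 CPM in the MCS controls, from 2 to 26 reads per library. KO 2 to 4 were above every control and KO 1 was among the controls. The log2 fold change was 2.02 (SE 0.45, adjusted p = 0.00372), and 2.31 without KO 1. Psat1 was at 0.521, 1.34, 1.18 and 2.30 CPM in KO 1 to 4, at 0.500, 0.347 and 0.278 CPM in the WT Cre controls and at 0.285, 0.223 and 0.727 CPM in the MCS controls. KO 1 was above every control but MCS 3, and KO 2 to 4 were above all. Its log2 fold change was 1.81 (SE 0.39, adjusted p = 0.00305), and 2.05 without KO 1.

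Mthfd2 (chr6:83305691-83325908, minus strand) encodes the mitochondrial methylenetetrahydrofolate dehydrogenase, typical of embryonic and dividing cells and also a target of ATF4. It was at 1.56, 2.14, 2.36 and 3.33 CPM in KO 1 to 4, at 1.04, 1.48 and 1.35 CPM in the WT Cre controls and at 0.896, 1.34 and 1.23 CPM in the MCS controls. Every KO liver was above every control, and KO 1 was the nearest to them. The log2 fold change was 0.95 (SE 0.23, adjusted p = 0.00573), and 1.09 without KO 1. In the comparisons with 3 controls, the calls of Psat1, Phgdh and Mthfd2 rested on single libraries. Against the WT Cre controls Mthfd2 had an adjusted p of 0.0338, which became 0.0507 to 0.13 without any 1 of the 3 WT Cre controls or of KO 2 to 4, and Phgdh (0.0242) lost its call without any 1 of the WT Cre controls, KO 2 or KO 4. Psat1 (0.0158) lost it without WT Cre 2 or WT Cre 3. Against the MCS controls Psat1 was lost without MCS 1 or MCS 2, Phgdh without MCS 2 or MCS 3, and Mthfd2 without MCS 1.

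The KO livers differed in where they fell. KO 1 was the lowest of the 4 for 6 genes (Atf3, Ddit3, Asns, Psat1, Phgdh and Mthfd2), and KO 4 was the highest for 6 (Trib3, Asns, Chac1, Psat1, Phgdh and Mthfd2). KO 1 was also the lowest KO liver for the summed lymphoid, Kupffer cell, stellate cell, endothelial and cell cycle genes, and KO 4 the highest for the Kupffer cell genes (1259 CPM), stellate cell genes (811 CPM) and endothelial genes (462 CPM). For the summed hepatocyte genes KO 1 was the highest KO liver (97760 CPM) and KO 4 the lowest (83760 CPM). The cholangiocyte sum was highest in KO 1 too (91.5 CPM). The part of other cell types in Asns, Psat1, Phgdh, Mthfd2 and Atf3 was not tested.

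Against the WT Cre controls 5 of the 10 genes were higher and 2 lower in KO, against 15.3% and 13.1% of all genes. Against the MCS controls 4 were higher and 3 lower, against 17.3% and 14.8% of all genes. The difference in these lists came from Asns and Trib3, whose values are given above, and it depended on the method. Asns was called against the MCS controls with DESeq2 (adjusted p = 0.0247). Against the WT Cre controls it was not called with limma-voom (adjusted p = 0.134). Trib3 was not called against the MCS controls with limma on log2(FPKM + 1) (adjusted p = 0.0684). The comparisons share the KO livers and one fit, so their calls are not independent of each other. With any 1 library left out, 3 to 7 genes were called against the WT Cre controls, the fewest without WT Cre 2 or WT Cre 3, and 4 to 8 against the MCS controls, the fewest without MCS 1.

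**Figure D2:**
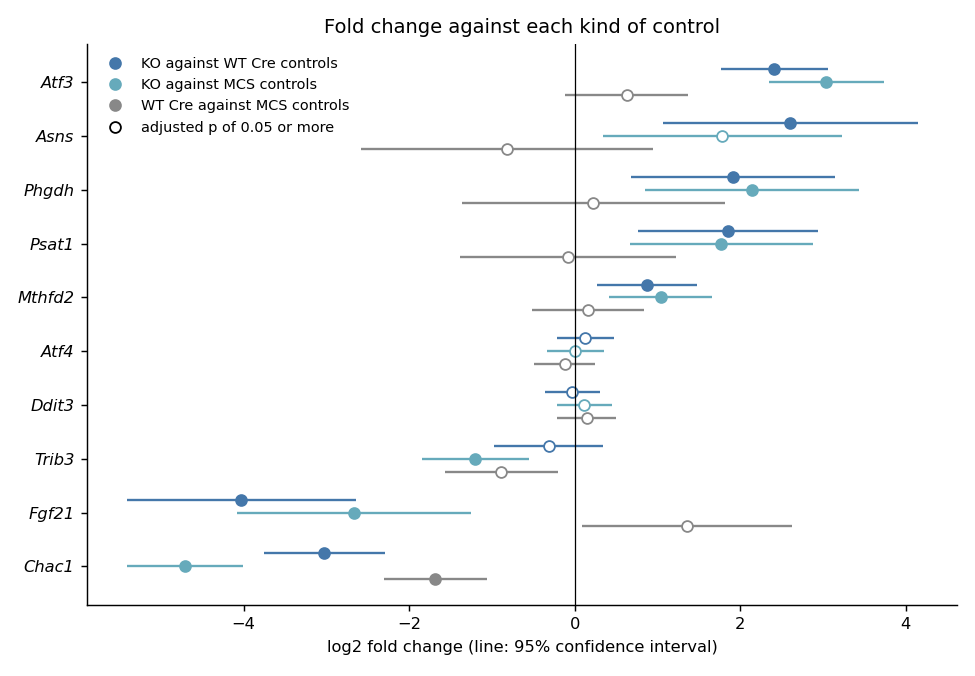
Log2 fold change of the 10 genes (horizontal axis) for KO against the WT Cre controls, KO against the MCS controls and WT Cre against the MCS controls, with 95% confidence intervals as lines. Filled points had an adjusted p under 0.05 and open points did not. Atf3 lies at 2.41 and 3.04 and Chac1 at -3.02 and -4.71 in the KO comparisons, and Chac1 at -1.69 is the filled point of the control comparison.

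Levels between genes were compared per length, as RPKM over the summed exon length. In the controls Atf4 led at 41.1 ± 7.20 RPKM (SD, n = 6), and no other member overlapped it. Fgf21 (6.28 ± 3.43 RPKM), Ddit3 (4.52 ± 0.274 RPKM), Chac1 (3.42 ± 2.25 RPKM) and Trib3 (2.70 ± 1.32 RPKM) followed, each overlapping the next in its range over livers. All of these were above Atf3 (0.571 ± 0.177 RPKM), Mthfd2 (0.350 ± 0.0619 RPKM), Asns (0.184 ± 0.0706 RPKM), Psat1 (0.0925 ± 0.0444 RPKM) and Phgdh (0.0662 ± 0.0254 RPKM), in which neighbours again overlapped. In KO the order was Atf4 (43.0 ± 5.42 RPKM, SD, n = 4), Ddit3 (4.64 ± 0.893 RPKM), Atf3 (3.66 ± 1.10 RPKM), Trib3 (1.52 ± 0.365 RPKM), Asns (0.791 ± 0.588 RPKM), Mthfd2 (0.673 ± 0.211 RPKM), Fgf21 (0.624 ± 0.687 RPKM), Psat1 (0.314 ± 0.172 RPKM), Phgdh (0.268 ± 0.157 RPKM) and Chac1 (0.196 ± 0.0371 RPKM). Only the steps from Atf4 to Ddit3 and from Atf3 to Trib3 were free of overlap. Fgf21 was thus at position 2 in the controls and 7 in KO, Chac1 at 4 and 10, and Atf3 at 6 and 3. Without KO 1, in which Fgf21 was at 1.64 RPKM, the Fgf21 mean was 0.284 ± 0.119 RPKM (SD, n = 3), which put it at position 9, after Psat1 (0.378 ± 0.142 RPKM) and Phgdh (0.340 ± 0.0762 RPKM), and its range overlapped both. Asns, at 0.0715 RPKM in KO 1, averaged 1.03 ± 0.417 RPKM without it. Chac1 and Atf3 were at positions 10 and 3 without KO 1 too.

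**Figure D3:**
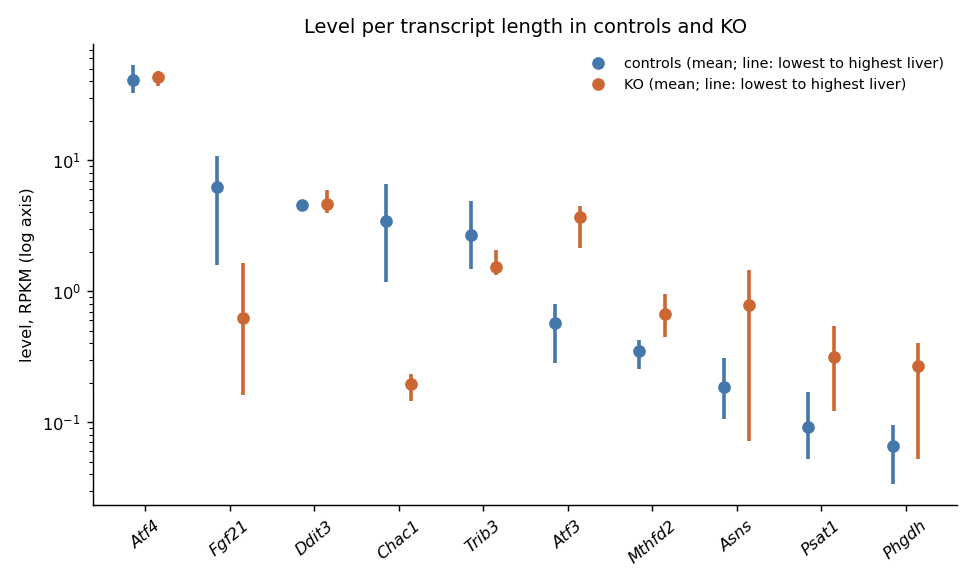
Level per exon length (RPKM, logarithmic vertical axis) of the 10 genes, ordered by the control mean, in the 6 controls and 4 KO livers; points are means and lines run from the lowest to the highest liver. Atf4 lies at 41.1 and 43.0 RPKM, far above the rest, and the lines of Chac1, Atf3 and Mthfd2 do not touch between the groups.

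The lists of related genes were counted beside the shares of all genes given above, 19.7% higher and 16.6% lower in KO, and no list was tested as a whole. Those shares belong to the fit of all libraries. Shares for fits with a library left out are not given, so a changed count in such a fit cannot be read as particular to its list. Upstream of ATF4, of 17 genes for the eIF2 kinases, the eIF2 and eIF2B subunits and their phosphatase partners, 2 were higher, 0 were lower and the median log2 fold change was -0.03. Eif2ak3, which encodes the ER stress kinase PERK, was at 29.9 ± 11.4 CPM (SD, n = 4) in KO and 14.4 ± 0.995 CPM (SD, n = 6) in the controls (log2 fold change 1.05, adjusted p = 0.00181). Its lowest KO liver (15.7 CPM) lay below its highest control (15.9 CPM). Impact, which encodes an inhibitor of GCN2 activation, was at 18.5 ± 1.16 and 13.1 ± 0.937 CPM (0.49, adjusted p = 0.00118). Ppp1r15a, which encodes GADD34, the stress-induced phosphatase partner that ends the response, was at 10.7 CPM in KO and 12.2 CPM in the controls and was not called (-0.19, adjusted p = 0.356). Without KO 1 the counts in this list were again 2 higher and 0 lower.

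Of 16 further ATF4 targets in amino acid transport and synthesis, 8 were higher, 2 lower and 6 not called, with a median of 0.74, against 19.7% higher and 16.6% lower among all genes. The transporters Slc1a5 (18.7 ± 6.92 CPM in KO, 3.05 ± 0.886 CPM in the controls, log2 fold change 2.61, adjusted p = 3.41e-05) and Slc1a4 (41.7 ± 3.05 CPM and 7.60 ± 5.34 CPM, 2.45, adjusted p = 0.00497) rose the most among those with a mean of at least 1 CPM. Slc1a4, a carrier of alanine, serine and cysteine, was also higher in the WT Cre than in the MCS controls (2.06, adjusted p = 0.000141). The genes that fell were Slc38a2, the transporter SNAT2 (77.3 ± 26.5 CPM and 170.3 ± 69.3 CPM, -1.14, adjusted p = 0.023; not called against the WT Cre controls, -0.59, adjusted p = 0.122), and Shmt2, the mitochondrial serine hydroxymethyltransferase (134 ± 18.0 CPM and 241 ± 35.7 CPM, -0.85, adjusted p = 0.00039). The element TGATGNAA was present in the promoters of 3 of the 11 genes of this list that matched RefSeq (Pycr1, Slc1a4 and Slc7a11). Without KO 1 the counts were 9 higher and 2 lower.

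Stress targets were called in both directions. Of 16 further ATF4 or CHOP targets, 6 were higher and 2 lower (median 0.26), and 5 and 1 without KO 1, but 3 and 1 without KO 3 or without KO 4. Tnfrsf10b, the death receptor DR5 (3.06 ± 0.775 CPM in KO, 1.13 ± 0.717 CPM in the controls, 1.43, adjusted p = 0.0138), and Nupr1, a small chromatin protein (2.03 ± 0.837 CPM and 0.885 ± 0.306 CPM, 1.21, adjusted p = 0.00672), rose. Herpud1, which acts in ER-associated degradation, fell (242.7 ± 21.9 CPM and 484 ± 213 CPM, -0.995, adjusted p = 0.0265); it was also lower in the WT Cre than in the MCS controls (-1.19, adjusted p = 0.00117) and was not called against the WT Cre controls (-0.28, adjusted p = 0.111). Atf5, a bZIP factor close to ATF4, fell as well (320.0 ± 69.7 CPM and 493 ± 61.2 CPM, -0.62, adjusted p = 0.00546). Among 14 partner bZIP genes, some of them in the list above, 4 were higher, led by Fos (1.48, adjusted p = 0.021) and Batf3 (1.46, adjusted p = 0.000391), and 2 were lower, Atf5 and Nfe2l1 (-0.29, adjusted p = 0.035); Fos and Nfe2l1 were not called against the MCS controls (adjusted p = 0.118 and 0.142). Without KO 3, 2 were higher and 1 lower.

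The tRNA synthetases, which ATF4 induces in amino acid shortage, were called in both directions. Of 12 genes, 2 were higher (Gars, 0.33, adjusted p = 0.0205, and Wars, 0.28, adjusted p = 0.035) and 3 lower (Tars, Lars and Mars), with a median of -0.12, and 2 were higher and 4 lower without KO 1. The 2 higher of 12 stand beside 19.7% of all genes, and neither was called against the WT Cre controls (Gars 0.0634, Wars 0.0701) or the MCS controls (Gars 0.0539, Wars 0.106) by the adjusted p. Tars, for threonine, was at 95.6 ± 8.73 CPM in KO and 197 ± 18.5 CPM in the controls (-1.04, adjusted p = 1.58e-05), and Lars, for leucine, at 21.7 ± 0.891 CPM and 28.3 ± 2.64 CPM (-0.39, adjusted p = 0.00543). TGATGNAA was present in 5 of the 8 of these genes that matched RefSeq (Aars, Gars, Iars, Tars and Yars), among them Gars and Tars.

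The other branches of the stress response were compared in the same way. Of 16 ER chaperone, ATF6 and XBP1 genes, 3 were higher and 2 lower (median 0.03), near the shares over all genes, and 4 and 1 without KO 1. The called genes were led by the disulfide isomerase Pdia6 (643 ± 109 CPM in KO and 318 ± 55.0 CPM in the controls, 1.02, adjusted p = 0.000181) and Atf6 (0.51, adjusted p = 0.0073), with Sdf2l1 (-0.63, adjusted p = 0.0437) and Sel1l (-0.50, adjusted p = 0.00199) lower. Sdf2l1 was called against neither the WT Cre controls (adjusted p = 0.158) nor the MCS controls (adjusted p = 0.062). Hspa5, the chaperone BiP, was not called (0.17, adjusted p = 0.597). Of 10 mitochondrial stress genes, 0 were higher and 3 lower (median -0.29), the lowest being Trap1 (-0.66, adjusted p = 0.000526) and Atf5, and 6 were lower without KO 1.

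Mthfd2 rose, and most other genes of its pathway fell. Of 16 other folate and one-carbon genes, 0 were higher and 11 lower (median -0.62), also without KO 1, and the largest fall was that of Mthfd2l, the close relative of Mthfd2 that adult tissue uses (0.843 ± 0.198 CPM in KO and 2.10 ± 0.356 CPM in the controls, -1.30, adjusted p = 0.000636). The hepatocyte genes fell beside them, 11 of 15 (6 without KO 3). The third enzyme of serine synthesis, Psph, was at 5.29 CPM in KO and 5.65 CPM in the controls (-0.09, adjusted p = 0.715), which left Phgdh and Psat1 as the members of that route that rose.

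Around Fgf21, the genes that receive the hormone were read too. Of 5 genes for its receptors and the co-receptor, 2 were higher, Fgfr1 (8.99 ± 1.81 CPM in KO and 4.13 ± 0.886 CPM in the controls, 1.13, adjusted p = 0.000451) and Fgfr2 (52.8 ± 13.6 CPM and 34.0 ± 6.25 CPM, 0.64, adjusted p = 0.0145; not called against the MCS controls, adjusted p = 0.0931). The Fgfr2 gene model shares exon bases with Ctbp2 on the same strand, so its reads may have been shared. Without KO 1 the counts in this list were 2 higher and 2 lower, and without KO 4 1 higher and 0 lower. Klb, the co-receptor beta-Klotho, was at 32.0 ± 4.43 CPM and 30.4 ± 4.94 CPM (0.07, adjusted p = 0.725). PPARalpha, the fasting receptor, also drives Fgf21, and of 12 genes for it and its targets 3 were higher and 3 lower (median 0.20): Acot2, an acyl-CoA thioesterase, rose (54.4 ± 30.4 CPM and 5.13 ± 1.48 CPM, 3.40, adjusted p = 9.32e-05), as did Cyp4a10 (0.94, adjusted p = 0.0228; 0.125 against the MCS controls), while Cpt1a, which admits fatty acids to mitochondria (-0.68, adjusted p = 0.00042), fell. The counts were 2 higher and 5 lower without KO 1, and 2 and 1 without KO 3 or KO 4. Atf3 is also an immediate early gene, and of 10 others 5 were higher and 0 lower (median 0.84), led by Ier3 (2.60 ± 1.17 CPM and 0.474 ± 0.139 CPM, 2.46, adjusted p = 9.88e-05) and Nr4a1 (6.14 ± 2.93 CPM and 1.65 ± 1.00 CPM, 1.90, adjusted p = 0.00999; 0.0597 against the WT Cre controls). Without KO 1, 4 were higher, and without KO 2 or KO 3, 3 were higher.

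**Figure D4:**
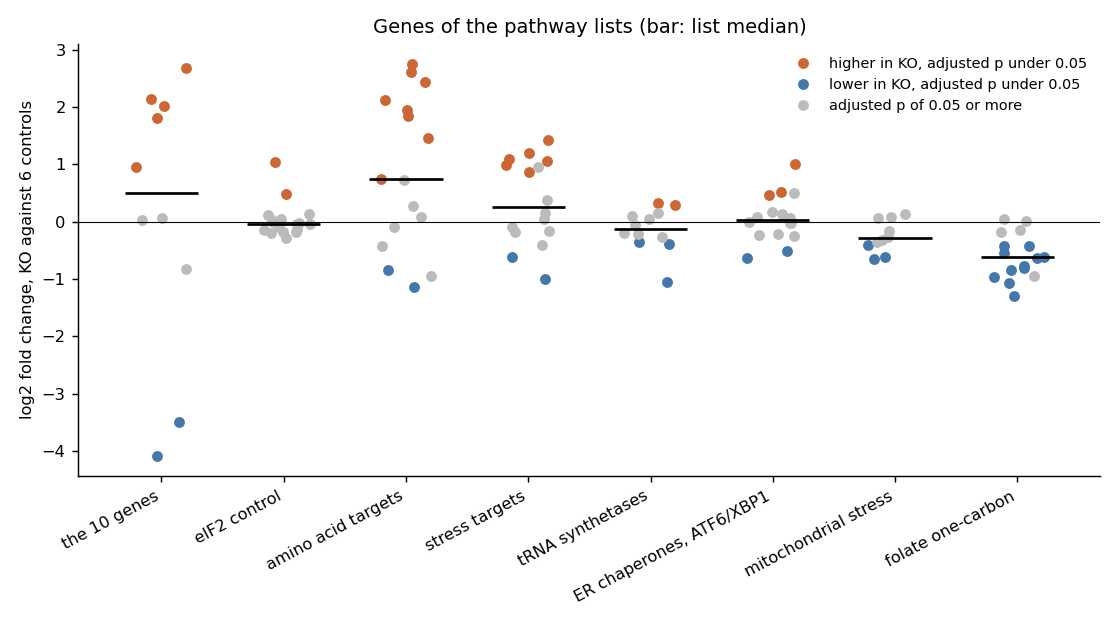
Log2 fold change of KO against the 6 controls (vertical axis) for each tested gene of the 10 genes and of 7 lists of the pathway (horizontal axis); orange points were higher and blue points lower at an adjusted p under 0.05, grey points were neither, and the bar is the list's median. The medians run from -0.62 for folate one-carbon genes to 0.74 for amino acid targets, and the 10 genes hold the lowest points, Chac1 at -4.10 and Fgf21 at -3.49.

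The genes whose pattern over the 10 livers was most like that of each member were found by the root mean square difference of centred log2 CPM among 13209 genes with a mean of at least 1 CPM (13210 for Psat1 and Phgdh, which were below it themselves). Nearest to Atf3 were Ccr2 (0.23), Slc1a5 (0.25) and Clec7a (0.287). Nearest to Phgdh were Il2rb (0.256), Aoah (0.26) and Cxcr4 (0.267), and nearest to Psat1 were Nedd9 (0.196), Cd93 (0.227) and 1700017B05Rik (0.238). Mthfd2 had Cep170 (0.132), Rassf1 (0.134) and Apobec1 (0.136), and Asns had Avpr1a (0.368), Rasgef1b (0.372) and Gm17300 (0.437). For Chac1 they were Mup3 (0.48), Grm8 (0.515) and Ugt2b1 (0.522), and for Fgf21 Sema5b (0.55), Gm32063 (0.57) and Cyp46a1 (0.588), at a larger distance than for the genes that rose. Trib3 was nearest to Gm10059, Aatk and Zfp276 (0.294 to 0.312), Atf4 to Tmem161a, Suv39h1 and Snrnp70 (0.0862 to 0.0905) and Ddit3 to P3h1, Mad2l1 and Pigb (0.081 to 0.0891), where small distances go with small variation. These distances rest on 10 libraries that share the contrast of KO with the controls, and they describe likeness in these livers alone.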

How the data were processed

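The authors aligned reads to mm10 with STAR and, per their methods, counted them per gene with HOMER; the processing notes also list HTSeq and Cufflinks. The deposited counts are whole numbers per gene without normalization. The authors also deposited FPKM values, used here as an alternative with blank cells (268042, 0 of them in the 10 genes) read as 0. The number in the library names tied control columns 1 to 3 to WT Cre and 4 to 6 to MCS animals, a step that the comparison with all 6 controls does not need. The members, lists and tests were chosen with earlier results of these data known.

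Genes with at least 10 counts in all were tested with edgeR 4.0.16 (R 4.3.3; quasi-likelihood F test, robust, TMM), two-sided, with Benjamini-Hochberg adjustment over all genes. KO was compared with the 6 controls in a fit of 2 groups and with each kind of control in a fit of 3 groups. An adjusted p under 0.05 was called. CPM are TMM-scaled, and RPKM divide CPM by the GENCODE M21 exon length in kilobases. Several listed genes, such as Atf5, Shmt2 and Psph, overlap exons of other genes, so reads may have been shared there too. No replicate pair was a repeated library (chi-square per degree of freedom 11.5 to 109). P-values weigh a difference between groups against the spread between these mice, which was estimated in part from all genes. From each list, the text names at most 2 called genes with the largest rise and 2 with the largest fall and a mean of at least 1 CPM (some are not reported here); Ppp1r15a, Hspa5, Psph, Klb and Mars were named after their values were seen. Scripts were tested on simulated data. DESeq2 1.42.0, limma 3.58.1 (voom and log2(FPKM + 1) or log2(FPKM + 0.1)), other scalings and filters, single libraries left out and a replicate block were the alternatives; those for the lists and the order of levels were added after the data were seen.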

Additional observations from a re-analysis of the deposited data

Results flagged for a closer look

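Among the 4 KO livers, Trib3 in KO 4 (4.40 CPM) stood apart from KO 1 to 3 (2.81 to 2.87 CPM), with a gap of 0.963 of the whole range, past Dixon's critical value for 4 samples. Fgf21 in KO 1 (1.56 CPM) stood apart from KO 2 to 4 (0.153 to 0.379 CPM), with a gap of 0.84 of the range. Chance flags about 1 in 20 such groups, and 20 groups were examined.

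The fall of Chac1 in KO differed between the kinds of control: the log2 fold change against the MCS controls was lower than that against the WT Cre controls by the difference between those controls, -1.69 (edgeR's quasi-likelihood test, adjusted p = 0.0157). The 3 WT Cre controls (1.92 to 3.69 CPM) were all below the 3 MCS controls (5.62 to 10.8 CPM). The call was lost without WT Cre 1, WT Cre 3, MCS 2 or MCS 3, and on log2(FPKM + 0.1).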

How the results depend on the processing

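Against the 6 controls 5 to 8 of the 10 genes were called over all alternatives (7 in the main analysis), and 7 or 8 with a library left out. Against the WT Cre controls 4 were called on log2(FPKM + 1) and 4 on log2(FPKM + 0.1), and 3 to 7 with a library left out. Against the MCS controls the range with a library left out was 4 to 8. Between the controls 0 genes were called on log2(FPKM + 0.1), and 0 to 1 with a library left out. Ddit3, which was not called, ran from -0.0933 (without KO 3) to 0.11 with a library left out. Asns lost its call against the 6 controls with limma-voom (adjusted p = 0.0825) and on log2(FPKM + 0.1) (adjusted p = 0.0769), and Phgdh on log2(FPKM + 1) (adjusted p = 0.086) and log2(FPKM + 0.1) (adjusted p = 0.117); the cause was not tested. Atf3, Chac1, Fgf21, Psat1 and Mthfd2 remained called against the 6 controls under each alternative. Scaling by library size alone raised the median of all genes by 0.175 and log2(FPKM + 0.1) by 0.112.

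The labels give same-numbered samples nothing in common but the number. Their deviations correlated at -0.122 to 0.203. Differently numbered samples were not compared, so these values cannot decide whether the numbers mark pairs. With the replicate block 7 genes were called against the 6 controls, 6 against the WT Cre controls (Mthfd2 was lost), 7 against the MCS controls and 1 between the controls. Phgdh, Asns, Psat1, and Chac1 and Fgf21 in KO rest on few reads. Single libraries decided several calls of Phgdh, Asns, Psat1, Mthfd2 and Trib3 against 3 controls. Chac1 and Fgf21 in KO kept their calls against each kind of control with any 1 library left out.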
